A study of Mus musculus with 36 samples.

Results

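The control cortices of the Ddx3x study were described here by how each RNA was split between the monosome and the polysome fraction of a sucrose gradient. The 12 control libraries, of 36 in the series, were chosen by their labels: 6 monosome and 6 polysome libraries, 3 of each from each of 2 crosses. Each pair of libraries came from 1 lysate, a pool of the cortices of 2 female embryos at stage E14.5, so there were 6 lysates. In the LoF cross the controls were Ddx3x lox/+ and carried no Cre. In the T532M cross the controls were Emx1-Cre/+ and carried Cre with no lox allele, and Emx1-Cre acts in the dorsal telencephalic lineage. Cross and control genotype cannot be told apart. Litters and days of dissection are not among the labels, so the p-values measure the spread between these lysates, which may in part be technical. Cleared lysates were spun through 15 to 50% sucrose and collected in 12 fractions. The labels leave unsaid which fractions went into the monosome and polysome pools.

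A ribosome that reads an mRNA leaves room behind it for the next one, and an mRNA that carries several ribosomes sediments in the polysome fraction. How many ribosomes fit depends on the length of the coding region, on how often ribosomes start and on how fast they move. Short reading frames that lie upstream of the main start codon can take up scanning ribosomes and so lower starts at the main frame. RNAs that are not translated on cytosolic ribosomes, such as nuclear or mitochondrial RNAs, can still sediment in the lighter fractions, so presence in the monosome fraction does not by itself show that a ribosome was bound.

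The monosome libraries held 36999365 to 49049947 read pairs and the polysome libraries 45154717 to 57935512. Levels are given in CPM, a gene's share of the TMM-scaled library total, where TMM is edgeR's scaling that sets the bulk of genes equal between libraries. CPM takes no account of transcript length, so it is compared between libraries and not between genes. A fold here is the polysome share over the monosome share of an RNA, not the amount in either fraction, and its zero point rests on that scaling. Mitochondrially encoded genes took 3.82 to 10.2% of the read pairs of monosome libraries and 0.0195 to 0.042% of those of polysome libraries. Summed markers of radial glia stood at 465 to 561 CPM in monosome libraries, of excitatory neurons at 1232 to 1575, and of interneurons at 169 to 314. Within the monosome libraries, meningeal markers summed to 1.99 to 17.9 CPM and choroid plexus markers to 0.228 to 31.6 CPM. For polysome libraries the meningeal sums spanned 14.8 to 298 CPM and the choroid plexus sums 0.136 to 78.65 CPM. Of 4 choroid plexus markers, 1 was above 0 in every library. Sox2, a defining marker of radial glia, was listed at 0 in all 12 libraries, and the other 5 markers of that list were above 0 in all of them. Tubb3, Rpl13 and Cox4i1 were also listed at 0, so a 0 here is no measure of absence: the table counts whole gene spans, and the counting command sets no option to count read pairs shared by overlapping genes. Of the genes tested, 20.0% overlapped another gene on the same strand.

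Among the mRNAs with the shortest coding regions, 4 with large falls are shown by their whole coding regions, since these are short enough to be read at a glance, with the start and the stop codon in capitals (GENCODE M21 transcripts of GRCm38, sense strand). Rpl41, the smallest protein of the large ribosomal subunit, lies at chr10:128548114-128549305 on the minus strand and codes for 25 residues. Ost4, a subunit of the enzyme that adds sugar chains in the endoplasmic reticulum, lies at chr5:30905885-30907788 (minus strand, 37 residues). The actin-monomer binding thymosins Tmsb4x (chrX:167207093-167209315, minus strand) and Tmsb10 (chr6:72957347-72958748, minus strand) have 44 residues each.
Rpl41: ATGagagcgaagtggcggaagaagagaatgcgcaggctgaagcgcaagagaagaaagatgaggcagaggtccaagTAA
Ost4: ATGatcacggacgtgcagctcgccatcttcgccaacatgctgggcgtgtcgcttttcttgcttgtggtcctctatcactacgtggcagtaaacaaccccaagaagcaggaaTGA
Tmsb4x: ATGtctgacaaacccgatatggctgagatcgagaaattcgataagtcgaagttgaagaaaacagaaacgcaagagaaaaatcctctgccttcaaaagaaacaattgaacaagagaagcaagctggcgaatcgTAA
Tmsb10: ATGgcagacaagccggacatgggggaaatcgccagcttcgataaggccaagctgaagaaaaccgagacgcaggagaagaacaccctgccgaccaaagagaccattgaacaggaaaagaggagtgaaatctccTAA

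Each of these 4 mRNAs was far lower in polysomes than in monosomes, and each is an extreme member of its length class, 1.77 to 2.29 log2 units below the median of genes under 100 residues. Tmsb4x was at 4552 to 5864 CPM (median 5064) in the 6 monosome libraries and at 110 to 146 CPM (median 125) in the 6 polysome libraries. Tmsb10 was at 3128 to 4490 CPM (median 3854) in monosomes and 95.9 to 135 CPM (median 115) in polysomes. The groups did not overlap for either thymosin, and the log2 folds were -5.35 ± 0.13 (SE) and -5.07 ± 0.11. Rpl41 went from 1021 to 1357 CPM (median 1160) in monosomes to 36.4 to 44.0 CPM (median 42.6) in polysomes, a log2 fold of -4.85 ± 0.09. Ost4 went from 120 to 146 CPM (median 132) to 3.79 to 5.57 CPM (median 4.59), a log2 fold of -4.83 ± 0.07. In the 2 crosses the folds of Rpl41 were -4.93 and -4.77, and those of Tmsb4x -5.34 and -5.36.

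Most RNAs of the control cortex were unevenly split between the fractions. Of 17920 genes that passed the filter on low counts, out of 55487 in the table, 7318 were higher in polysomes (40.8%) and 8804 were lower (49.1%), by edgeR's quasi-likelihood test with a term for each lysate and a Benjamini-Hochberg adjusted p under 0.05. A difference of at least 4-fold was called upward for 15.6% of the genes tested and downward for 21.4%. The folds spanned -8.27 to 5.96 on the log2 scale, with a median of -0.27 and a median SE of 0.10, and 33.5% of genes lay within 2-fold. With the TMM scaling the libraries of the fractions did not overlap for 13583 genes (75.8%). The split between directions rests on the scaling: with library totals in place of TMM the median of all genes moved to -1.20 and the calls were 4670 higher and 11682 lower. Differences between genes do not depend on it, and directions are given below relative to the TMM zero. Every count of list members called below is to be read beside the shares over all genes, 40.8% higher and 49.1% lower.

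Most non-coding transcripts tested had a smaller share of the polysome than of the monosome libraries. The median log2 fold was 0.15 for 14259 protein-coding genes, -2.58 for 880 long intergenic RNAs, -2.16 for 821 antisense RNAs and -2.02 for 938 processed pseudogenes. Their median levels were, in the same order, 21.2, 0.40, 0.49 and 0.34 CPM. A gene high enough in the libraries of 1 fraction alone can pass the low-count filter. For such rare RNAs the shares called lower may rest in part on the filter, which was not tested. Of the long intergenic RNAs 87.2% were lower in polysomes and 5.34% higher. All 15 small nucleolar RNA host transcripts tested were lower (median -3.86), and so were all 13 nuclear long non-coding RNAs of the list (median -3.14). Malat1, a nuclear speckle RNA, was at 716 to 1285 CPM (median 1077) in monosomes and 41.4 to 63.4 CPM (median 54.9) in polysomes (log2 fold -4.26 ± 0.13). Xist, the RNA that coats the inactive X chromosome, differed far less, from 53.2 to 74.5 CPM (median 59.6) to 34.3 to 51.6 CPM (median 43.5), a log2 fold of -0.56 ± 0.06. Kcnq1ot1, an imprinted antisense RNA, was at a log2 fold of -0.28 ± 0.10, with overlapping groups. Nuclear RNAs were thus lower in polysomes by very different amounts. All 15 host transcripts and 10 of the 13 nuclear RNAs, Malat1 and Xist among them, overlap another gene on their strand, which makes their levels uncertain.

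The 8 mitochondrially encoded mRNAs tested, which are read by ribosomes inside mitochondria, had the lowest folds of any list (8 of 8 lower, median -6.63). mt-Co1, a subunit of cytochrome oxidase, was at 10300 to 29050 CPM (median 17250) in monosomes and 104 to 284 CPM (median 196) in polysomes. mt-Cytb, of complex III, had a log2 fold of -7.30 ± 0.24. The other 5 of the 13 mitochondrial mRNAs had at most 80 read pairs over the 12 libraries and were not tested.

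**Figure D1:**
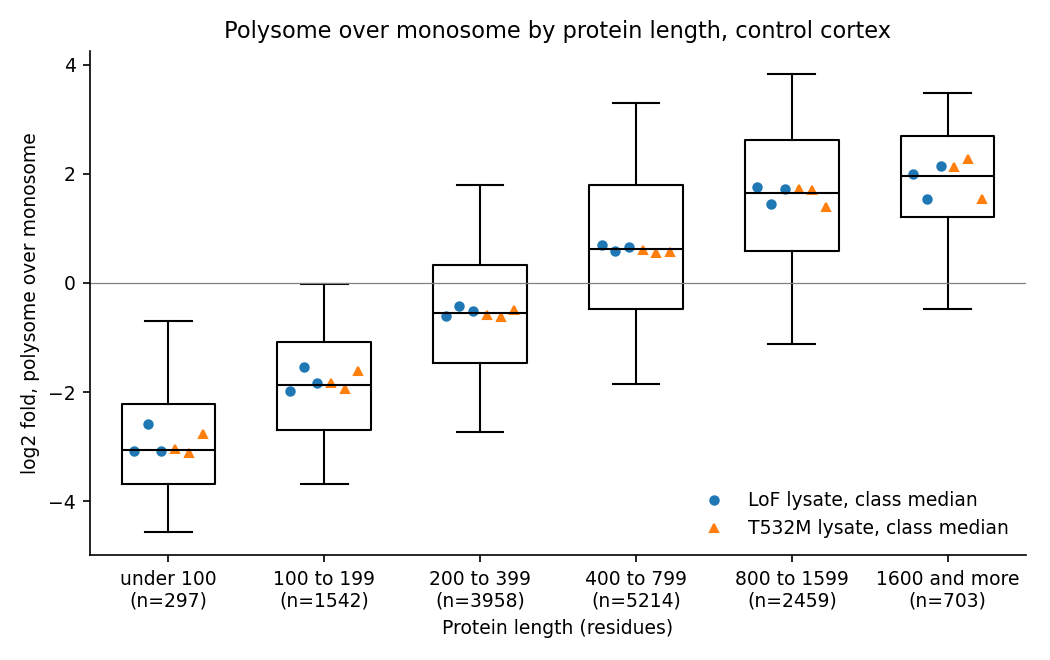
Box plots of the log2 fold, polysome over monosome, by annotated protein length in residues (boxes, quartiles; whiskers, percentiles 5 and 95; n genes below each class), with the class median of each of the 6 lysates as circles (LoF) or triangles (T532M). The medians climb from -3.06 under 100 residues to 1.96 at 1600 residues and more.

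Among protein-coding genes the polysome share rose with coding length. For 14173 nuclear genes with a complete annotated coding region, the median log2 fold was -3.06 for proteins under 100 residues (n = 297), -1.86 for 100 to under 200 (n = 1542), -0.55 for 200 to under 400 (n = 3958), 0.62 for 400 to under 800 (n = 5214), 1.65 for 800 to under 1600 (n = 2459) and 1.96 for 1600 and more (n = 703). In the shortest class 96.3% of genes were lower in polysomes and 1.01% higher. In the longest class 5.55% were lower and 89.5% higher. Each step between neighbouring classes was positive in 6 of 6 lysates (exact sign-flip test over lysates, two-sided, p = 0.03125 for each of the 5 steps, adjusted p = 0.03125, the smallest that 6 lysates allow). The steps averaged 1.15, 1.26, 1.15 and 1.01 log2 units up to the class that starts at 800 residues, and the last was 0.31 (SD 0.18, range 0.078 to 0.56). The rise thus flattened above that length.

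The lysates differed in how wide the fractions were parted. LoF replicate 2 and T532M replicate 3 had the narrowest interquartile ranges of the log2 ratio, 2.63 and 2.67, against 2.95 to 3.05 in the other 4. Their medians in the longest class were 1.53 and 1.54, against 2.00 to 2.27 in the others. With library totals in place of TMM the class of 400 to under 800 residues had a median of -0.31, while the order of the 6 classes stayed as above.

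Across genes, Spearman's rho between the fold and protein length was 0.64 (n = 14173 genes, which are not independent replicates and share the same 12 libraries). It was 0.60 to 0.65 within single lysates. Transcript length had a rho of 0.49, gene span 0.34 and mean CPM 0.33, and how far these features overlap with protein length was not tested. The length of the 3′ untranslated region had a rho of 0.15, the 5′ leader 0.074 and the GC content of the coding region -0.038. Among the 7258 genes of at least 20 CPM, the values were 0.64 for protein length and 0.0068 for the 3′ untranslated region.

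Some genes lay far from the median of their length class. Rtn4, the reticulon that shapes tubular endoplasmic reticulum, has a short annotated principal isoform in the class of 100 to under 200 residues and had a log2 fold of 3.98 ± 0.10, but the gene also makes much longer isoforms, which were not told apart. Ckb, the brain creatine kinase of 381 residues, went from 50.7 to 63.8 CPM (median 55.3) in monosomes to 682 to 798.7 CPM (median 762) in polysomes, a log2 fold of 3.75 ± 0.09 against a class median of -0.55. The splicing regulator Hnrnpa2b1 (341 residues, 3.67) and the phosphatase Dusp4 (398 residues, 3.54) stood as high in that class. Map3k10, a kinase of 940 residues, went the other way, from 159 to 204 CPM (median 179) to 33.96 to 42.9 CPM (median 40.2), a log2 fold of -2.19 ± 0.06 against a class median of 1.65. Clock, the circadian transcription factor (855 residues), was at -1.91 and the RNA-binding ubiquitin ligase Rc3h2 (1187 residues) at -1.86. Among genes of at least 20 CPM in the longest class, the homeobox factor Zfhx2 (2562 residues, -1.20) and the bromodomain protein Brwd1 (2304 residues, -1.07) were lowest.

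The 10 largest rises among genes of at least 20 CPM were seen for proteins of 579 to 1058 residues rather than for giant ones. Maged1, a member of the MAGE family, went from 66.4 to 86.2 CPM (median 76.8) in monosomes to 2804 to 3591 CPM (median 3230) in polysomes, a log2 fold of 5.39 ± 0.14. Hsp90aa1, the stress-induced cytosolic chaperone, went from 72.9 to 101 CPM (median 79.8) to 2727 to 4243 CPM (median 3499), a log2 fold of 5.36 ± 0.15. The others were the proteoglycan Gpc3 (5.17), the coatomer subunit Copb2 (5.13), the ubiquitin-activating enzyme Uba1 (5.11), the peroxisomal enzyme Hsd17b4 (5.07), the Notch ligand Dner (5.03), the unfolding ATPase Vcp (5.002), the endothelial cadherin Cdh5 (4.99) and the alanyl-tRNA synthetase Aars (4.86). Gpc3, Hsd17b4, Dner and Aars overlap another gene on their strand, as do Clock, Rc3h2, Brwd1, Oaz1, Odc1, Azin1, Ddit3, Sox5, Rrm1, Slc1a3, Robo2, Hsp90b1, Csf1r, Ftl1, Rpl3, Tpt1, Denr, Eef1b2, Eef2, Eif3b, Eif3c, Eif4e, Ppp1cc and Slc49a4, and their levels are uncertain for that reason. Ddx3x itself, the helicase altered in the other genotype of the series, went from 248 to 314 CPM (median 266) to 1888 to 3179 CPM (median 2340) in these controls (log2 fold 3.14 ± 0.14).

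**Figure D2:**
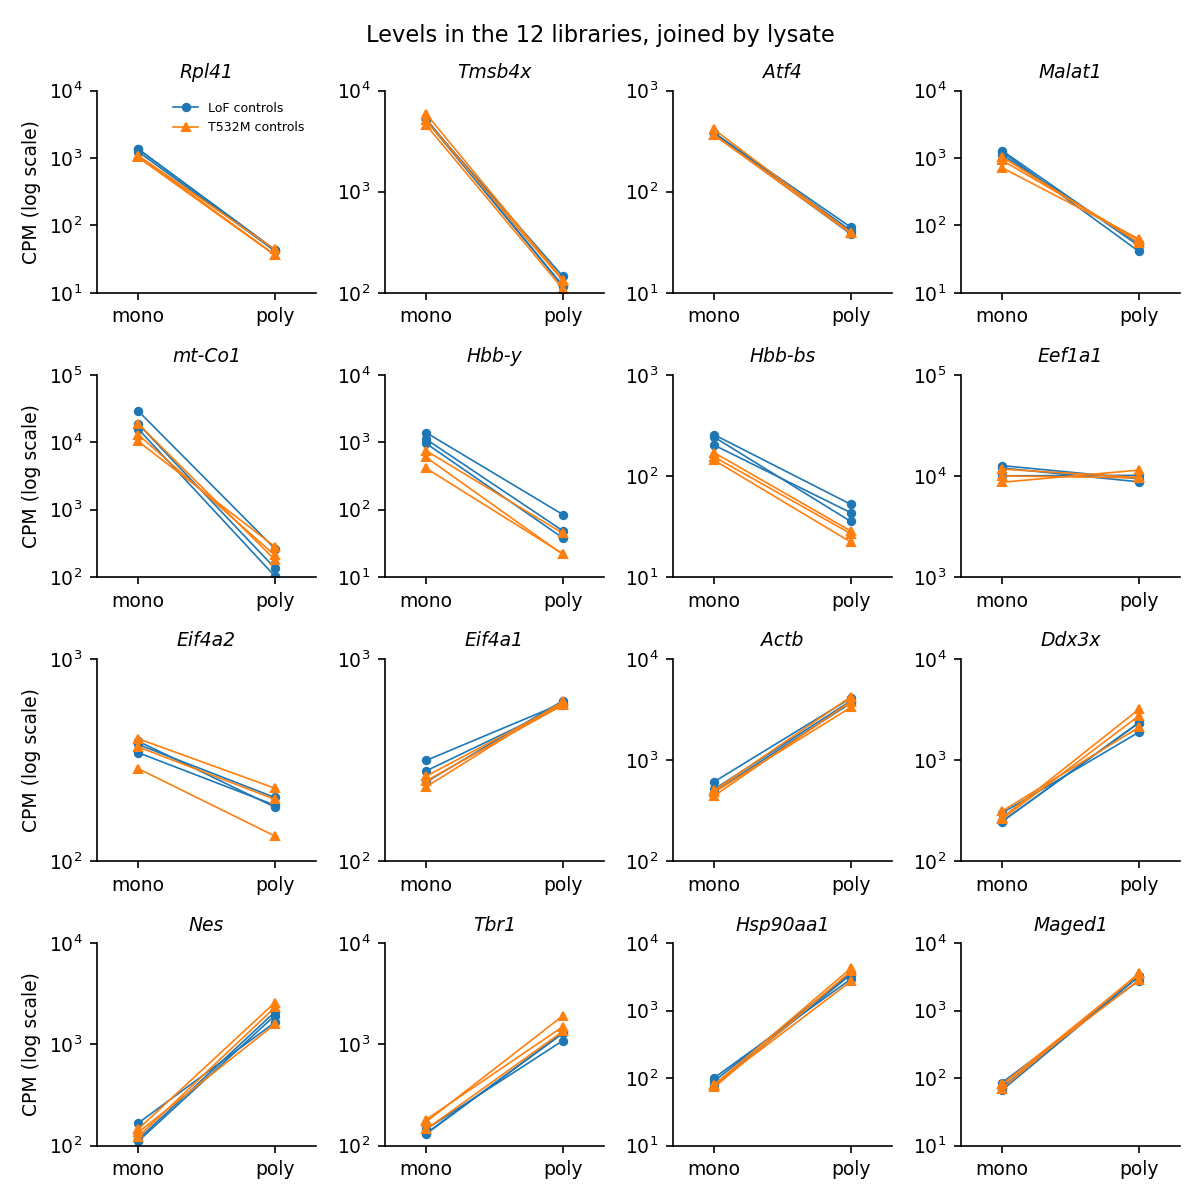
CPM (log axis) of 16 genes in the monosome and polysome library of each of the 6 lysates, joined by lysate (blue circles LoF, orange triangles T532M). Rpl41, Tmsb4x, Atf4, Malat1 and mt-Co1 drop in every lysate, Eef1a1 overlaps between fractions, and Maged1 and Hsp90aa1 rise in every lysate.

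mRNAs for the translation machinery were split by part. All 80 cytosolic ribosomal protein mRNAs tested, 47 of the large and 33 of the small subunit, were lower in polysomes, with medians of -2.96 and -3.22. These proteins are short (median 148 and 146 residues), and yet none of the 80 reached the median of its own length class; they lay a median 1.46 and 1.47 log2 units below it. Rpl3, among the longest of them, went from 362 to 517 CPM (median 437) to 207 to 271 CPM (median 234), a log2 fold of -0.87 ± 0.09. Ribosomal protein genes have many processed pseudogenes, and the counting command sets no option to count read pairs that match several places, so their levels are uncertain.

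The other mRNAs known for a terminal oligopyrimidine tract, a leader motif through which growth signals control translation, were less one-sided. Of these 17, 10 were lower and 6 higher (median -0.40), against 49.1% and 40.8% of all genes. With library totals 16 were lower and 0 higher. Tpt1, the translationally controlled tumour protein, was at -3.31 ± 0.10, the elongation factor subunit Eef1b2 at -2.61 and Eef2, which moves the ribosome along, at -0.40 ± 0.17. Eef1a1, the factor that brings aminoacyl-tRNA to the ribosome, did not pass: it was at 8671 to 12650 CPM (median 10860) in monosomes and 8752 to 11420 CPM (median 9627) in polysomes, with overlapping groups (log2 fold -0.14 ± 0.15, adjusted p = 0.392). It was called lower with library totals (-1.07, edgeR adjusted p = 2.65e-08) and with the filter at 5 CPM (-0.51, adjusted p = 0.0114). Of 40 initiation factor mRNAs 21 were higher and 17 lower, against 40.8% and 49.1% of all genes (median 0.25, which was -0.68 with library totals). Large members were high, with Eif3c at 4.08 ± 0.15, Eif3b at 3.95 and Eif5b at 3.31. The small Eif1 (-2.40) and Denr (-2.58) and the cap-binding Eif4e (-1.60) were low. Aminoacyl-tRNA synthetase mRNAs were higher for 22 of 23 members (median 3.32), and 21 of the 23 lay above their length class. The 1 lower member, Eef1e1 (-2.29), is a short scaffold protein of the synthetase complex.

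Subunits of the respiratory chain differed widely. Of 75 nuclear mRNAs for oxidative phosphorylation 62 were lower and 11 higher (median -2.08, median length 141 residues). Uqcr10, a small subunit of complex III, went from 96.0 to 118 CPM (median 115) to 3.18 to 4.85 CPM (median 4.21). Sdha, the catalytic subunit of complex II, went from 26.3 to 34.6 CPM (median 27.8) to 576 to 747 CPM (median 699). Their log2 folds were -4.74 ± 0.07 and 4.52 ± 0.12. Relative to their length classes the complex subunits were near the middle, with 32 of 75 above the class median. Glycolytic enzymes differed from that: 16 of 17 were higher, none lower, and 16 of 17 lay above their class, by a median of 2.36. Hk1 (4.33) and Eno1 (4.31) were the highest of them.

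**Figure D3:**
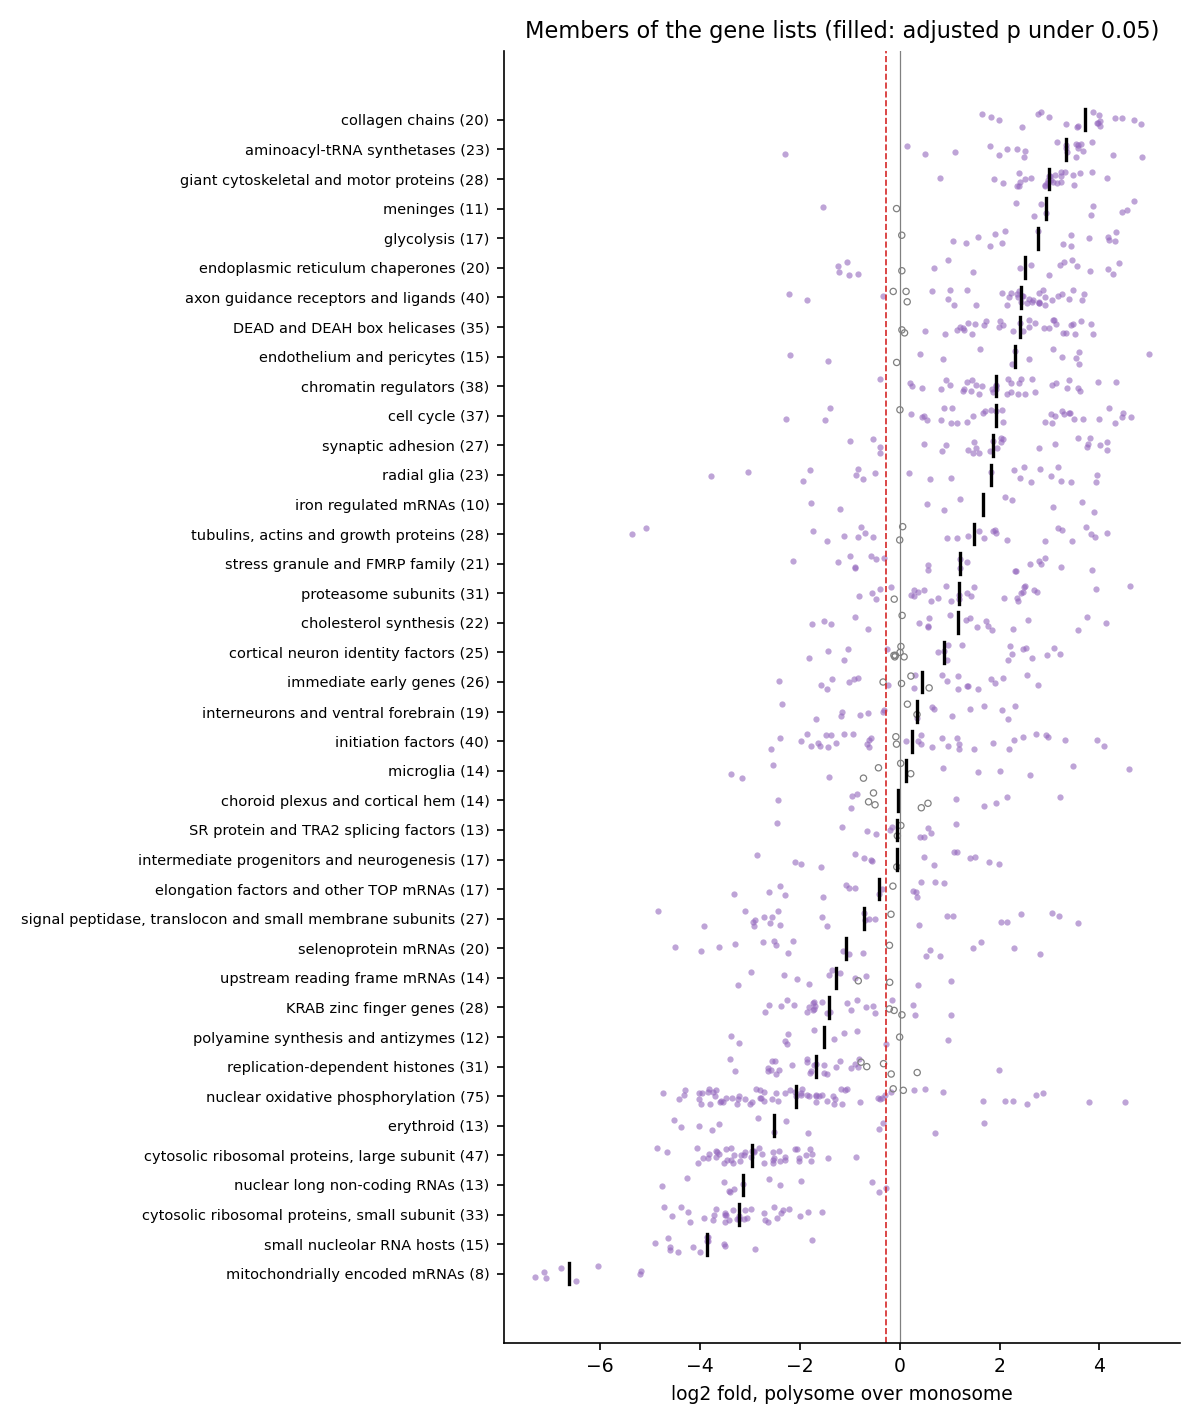
log2 fold, polysome over monosome, of each tested member of the gene lists with at least 8 tested members (number in brackets), ordered by list median (black bar). Filled points passed at adjusted p under 0.05, open grey points did not, and the dashed red line is the median of all genes, -0.27. Lists run from the mitochondrially encoded mRNAs at -6.63 to the collagen chains at 3.72.

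Proteasome subunit mRNAs were higher for 25 of 31 and lower for 5 (median 1.18), against 40.8% and 49.1% of all genes. With library totals 16 were higher and 12 lower. Psmd2, a scaffold of the regulatory particle, was at 4.61 ± 0.12, and the core subunits Psma3 (-0.81) and Psmb1 (-0.55) were lowest. In the secretory pathway the chaperones Hspa5 (4.398) and Hsp90b1 (4.28) of the endoplasmic reticulum were high (14 of 20 members higher, 5 lower). Of 27 subunits of the translocon, glycosylation and related membrane complexes 17 were lower and 9 higher, against 49.1% and 40.8% of all genes. Sec61g (-3.92) was among the lower ones beside Ost4, but 17 of the 27 lay above their length class. Collagen chains were higher for 20 of 20 (median 3.72), and 18 of 20 lay above their length class. DEAD and DEAH box helicases, the family of Ddx3x, were higher for 33 of 35 and lower for none (median 2.41), led by Ddx1 (3.87) and Dhx9 (3.83). Large cytoskeletal and motor proteins were higher for 28 of 28 (median 2.996).

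Lists of mRNAs under known translational control did not all go one way. Of 14 mRNAs known for regulatory upstream reading frames 10 were lower and 2 higher, against 49.1% and 40.8% of all genes. Their median was -1.27, and they lay a median 0.83 below their length classes. Atf4, the transcription factor of the integrated stress response, went from 363 to 412 CPM (median 374) in monosomes to 38.1 to 44.6 CPM (median 39.4) in polysomes, and the groups did not overlap (log2 fold -3.23 ± 0.07, against -0.55 for its length class). Ddit3, a target of Atf4 with a leader frame of its own, went from 17.8 to 21.1 CPM (median 19.2) to 1.79 to 2.75 CPM (median 2.54), a log2 fold of -2.98. Atf5, a relative of Atf4, was at -2.31 ± 0.06. Ppp1r15b, the constitutive partner of the phosphatase that reverses the stress response, was at 0.36 ± 0.07, which became -0.57 with library totals.

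The upstream frames of Atf4 and Atf5 have a similar layout in the annotated leaders, which is why their first short frames are shown, with the start and the stop codon in capitals. In Atf4 (chr15:80255184-80257541, plus strand) a frame of 3 residues starts 196 bases before the main start codon, and a later frame of 59 residues, which starts 97 bases before it, runs past the main start. In Atf5 (chr7:44812256-44816658, minus strand) a frame of 3 residues starts 252 bases before the main start, and one of 58 residues, which starts 121 bases before it, runs past the main start. The annotated Atf4 leader also holds an ATG farther upstream, 475 bases before the main start.
Atf4: ATGgcgtatTAG
Atf5: ATGgctctgTAG

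Polyamine genes were low as a group (10 of 12 lower, 1 higher, median -1.52), where 49.1% of all genes were lower and 40.8% higher. Oaz1, the antizyme whose synthesis needs a frameshift set by polyamines, was at 186 to 211 CPM (median 195) in monosomes and 15.9 to 22.5 CPM (median 18.6) in polysomes (log2 fold -3.37 ± 0.09). Odc1, the enzyme that antizyme targets, was at -0.85 ± 0.07, 1.46 below its class. The inhibitor of antizyme, Azin1, was the 1 higher member (0.97), but with library totals it was at 0.043 and did not pass. Iron-controlled mRNAs were higher for 8 of 10 and lower for 2 (median 1.66). The ferritins Fth1 (-1.78) and Ftl1 (-1.20) were the lower members and the transferrin receptor Tfrc was higher (2.25), and Fth1 lay 0.083 above the median of its class. Selenoprotein mRNAs were lower for 12 of 20 and higher for 7, not far from the shares over all genes (49.1% and 40.8%). Of these 20, 9 lay above their length class. KRAB zinc finger genes, whose proteins silence retroelements, were lower for 22 of 28 and higher for 3 (median -1.42), although their median length was 492 residues: 2 of the 27 with a complete coding region lay above their class.

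**Figure D4:**
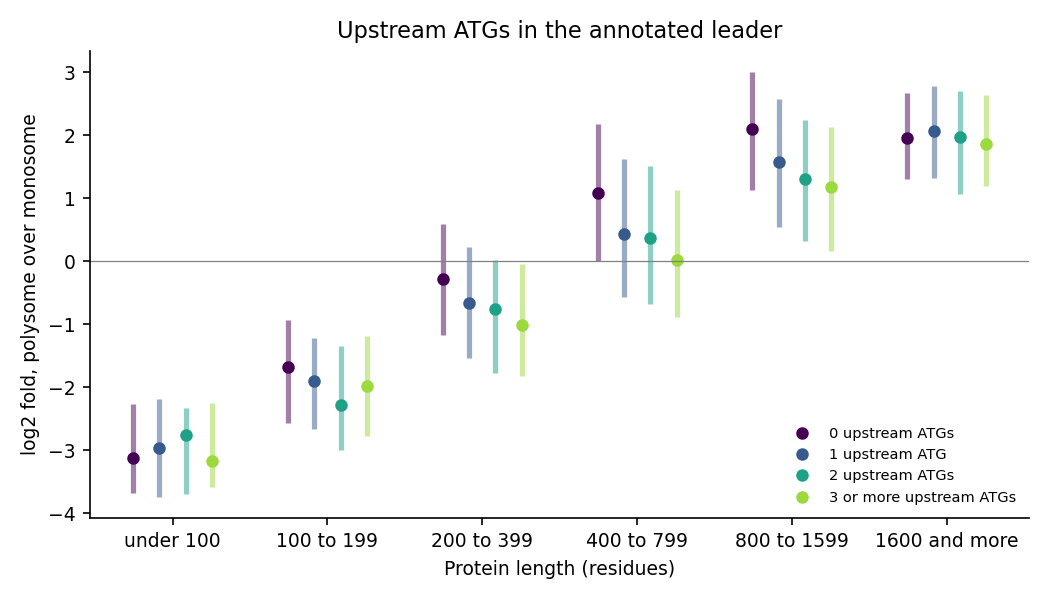
Median (point) and quartiles (bar) of the log2 fold, polysome over monosome, by protein length class and by the number of ATGs in the annotated leader. From 200 to under 1600 residues the medians fall as the number of upstream ATGs grows, for example from 1.09 to 0.014 at 400 to under 800 residues.

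Over all genes, more upstream ATGs went with a lower polysome share at middle lengths. Of 13602 genes with an annotated leader of at least 20 bases, 7332 held at least 1 ATG upstream of the main start in any frame (the letters ATG, sense strand only). At 400 to under 800 residues the median fold was 1.09 with no upstream ATG (n = 2227), 0.43 with 1, 0.38 with 2 and 0.014 with 3 or more (n = 1028). The difference between none and 3 or more averaged 1.04 log2 units over lysates (SD 0.11, positive in 6 of 6), and at 800 to under 1600 residues it was 0.90 (SD 0.13, 6 of 6). It was 0.67 at 200 to under 400 residues, 0.24 at 100 to under 200 and 0.14 under 100 (each positive in 6 of 6 lysates). In the longest class it was 0.023 (SD 0.073, 4 of 6 lysates). Below 200 residues the medians did not fall steadily with the number of ATGs. Under 100 residues they were -3.12 with none (n = 153), -2.97 with 1, -2.76 with 2 and -3.17 with 3 or more (n = 44). At 100 to under 200 residues the median with 2 (-2.28) was below that with 3 or more (-1.98). The exact sign-flip test over lysates gave p = 0.03125 for each of the 5 shorter classes (adjusted p = 0.0375 over the 6) and p = 0.5 for the longest. Every lysate holds the same genes, so this test measures repetition over lysates and not the spread among genes. Leaders with 3 or more ATGs were also longer, with a median of 437 bases against 121 at 400 to under 800 residues, and the part of leader length in this result was not tested.

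Genes with proteins of the same or nearly the same length were compared over 11 pairs, of which those described here bear on the cytoskeleton, splicing and translation. Mfap1a and Mfap1b, neighbouring copies of a splicing factor gene, code for 1 protein of 439 residues. Both were higher in polysomes, with log2 folds of 1.843 and 2.499, and within lysates Mfap1a was below Mfap1b by 0.65 (SD 0.11, 6 of 6 lysates). Such copies can share read pairs, so these levels are uncertain.

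Actb and Actg1, the cytoplasmic actins, differ at 4 of 375 residues. Actb went from 443 to 612 CPM (median 496) to 3327 to 4231 CPM (median 3822), and Actg1 from 306 to 436 CPM (median 381) to 996 to 1286 CPM (median 1127). The fold of Actb exceeded that of Actg1 by 1.336 log2 units (SD 0.20, 6 of 6 lysates). Of the helicases of the cap-binding complex, Eif4a1 was higher in polysomes (1.20 ± 0.08) and Eif4a2 lower (-0.93 ± 0.08), a difference of 2.13 (SD 0.23, 6 of 6); with library totals both were shifted down alike. Eef1a2, the neuronal and muscle form of the elongation factor, exceeded Eef1a1 by 1.38 (SD 0.25, 6 of 6). Each of these differences had the smallest exact p that 6 lysates allow (0.03125, adjusted 0.0382 over 11 pairs). The 11 include the globin pairs described below, which were chosen after their values were seen and so enter into the adjusted p. Actg1, Eif4a1, Eif4a2 and Eef1a1 overlap another gene on their strand, and Tuba1a was left out of the description because it was counted at a mean of 0.20 CPM under an overlapping gene.

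The genes that mark cortical cell types went both ways. The fractions of 1 lysate come from the same cells; for levels across lysates, fewer cells of a type and less RNA per cell cannot be told apart. Of 23 radial glia genes 15 were higher and 8 lower (12 and 10 with library totals), against 40.8% and 49.1% of all genes. The intermediate filament Nes went from 110 to 167 CPM (median 129) to 1583 to 2590 CPM (median 2013), a log2 fold of 3.93 ± 0.16, and the glutamate transporter Slc1a3 was at 3.94. The Notch effector Hes5 (-1.93) and the metallothionein Mt3 (-3.79) were lower. Among intermediate progenitor genes, 8 of 17 were higher and 8 lower, close to the shares over all genes (40.8% and 49.1%), and with library totals 5 were higher and 11 lower. They ranged widely, with the T-box factor Eomes at 2.00 and the Notch glycosyltransferase Mfng at -2.86.

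Layer and subtype factors of projection neurons were spread widely (14 of 25 higher, 5 lower, median 0.89, which was -0.04 with library totals; with library totals 10 higher and 12 lower). Tbr1, a factor of deep-layer neurons, went from 130 to 181 CPM (median 145) to 1090 to 1916 CPM (median 1324), a log2 fold of 3.21 ± 0.10. Fezf2, which specifies subcerebral neurons, went from 125 to 150 CPM (median 142) down to 49.2 to 55.0 CPM (median 51.7), a log2 fold of -1.43 ± 0.06. The annotated leader holds 7 ATGs in Fezf2, 2 in Tbr1 and 6 in Robo1, which was higher (3.69). A link of leader ATGs to the folds of these genes was not tested. Sox5 (3.10) and Bcl11b (2.48) were higher, and Neurod2 (-1.11) and Neurod6 (-1.04) lower. Axon guidance genes were mostly higher (34 of 40, 3 lower), led by the Slit receptors Robo1 (3.69) and Robo2 (3.65), and the short ephrins Efna2 (-2.22) and Efna3 (-1.85) were lower. Chromatin regulators were higher for 37 of 38, led by Kmt2d (4.34), but 19 of 38 lay above their length class. Cell cycle genes were higher for 33 of 37 and lower for 3, against 40.8% and 49.1% of all genes. The ribonucleotide reductase Rrm1 was at 4.63 and Mcm4, of the replicative helicase, at 4.46, while Birc5 (-2.28) and Cdk4 (-1.49) were lower.

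Globin mRNAs, which mark red blood cells, were lower in polysomes. Hbb-y, an embryonic beta-like globin, went from 411 to 1387 CPM (median 854) to 21.7 to 84.8 CPM (median 41.5), a log2 fold of -4.37 ± 0.13. Hbb-bs, an adult beta globin of the same 147 residues, went from 143 to 255 CPM (median 186) to 22.2 to 52.5 CPM (median 32.1), a log2 fold of -2.51 ± 0.08. Within lysates Hbb-y was 1.86 log2 units below Hbb-bs (SD 0.31, 6 of 6 lysates) and the embryonic Hba-x 0.88 below the adult Hba-a1 (SD 0.33, 6 of 6). These 2 pairs were chosen after their values were seen, so their differences are only a description and no p-value is given for them.

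**Figure D5:**
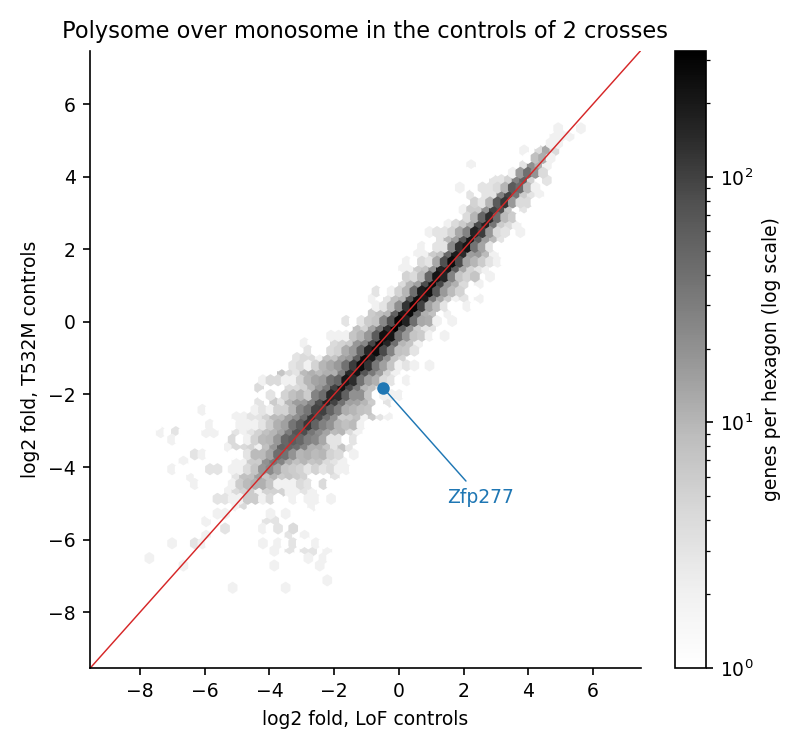
log2 fold, polysome over monosome, of 17920 genes in LoF controls (x) and T532M controls (y), as a hexagon density on a log scale with the line of equality in red. Genes follow the line, and Zfp277 at -0.49 and -1.82 is marked.

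The controls of the 2 crosses, which share no library, gave nearly the same folds. Over 17920 genes Pearson's r between crosses was 0.96 and Spearman's rho 0.98, as a description across genes, and the sign of the fold was the same for 17355. In LoF controls 15256 genes were called and in T532M controls 15101. Of 14447 genes called in both, 14446 had the same direction; the exception was the smooth muscle actin Actg2 (1.54 in LoF, -2.18 in T532M). The median size of the difference between crosses was 0.14 log2 units. A test of that difference called 1 gene (0.00558% of those tested), and 596 (3.33%) had an unadjusted p under 0.05. Summed markers of 5 non-neural cell types did not overlap between the crosses in monosome libraries. Those of intermediate progenitors did not overlap either and were higher in T532M (386 to 436 CPM) than in LoF (374 to 383 CPM). Those of radial glia, excitatory neurons and interneurons overlapped. How many of all genes are apart in this way is not given here, and the part of these cell types in any difference between crosses was not tested. Erythroid markers were at 390 to 412 CPM in LoF and 218 to 265 CPM in T532M, and meningeal markers at 14.2 to 17.9 and 1.99 to 12.3 CPM. Endothelial markers were at 19.1 to 24.1 and 11.3 to 16.2 CPM, microglial markers at 5.90 to 6.81 and 4.02 to 5.80 CPM, and choroid plexus markers at 0.636 to 31.6 and 0.228 to 0.413 CPM. Zfp277, a zinc finger gene, was at 24.1 to 29.4 CPM in LoF and 39.4 to 50.6 CPM in T532M monosome libraries, and at 17.8 to 19.2 CPM and 12.5 to 13.2 CPM in polysome libraries. Neither fraction overlapped between the crosses, and the log2 folds were -0.49 and -1.82 (difference -1.33 ± 0.15, T532M minus LoF, adjusted p = 0.0499).

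Compared with the cHet cortices of the same crosses, the control pattern was called different for few genes in the edgeR fit. A cHet embryo carried Emx1-Cre with Ddx3x lox/+ or with Ddx3x-T532M lox/+. In a joint fit of 24 libraries, 6 of 18560 genes passed for a difference in polysome over monosome (0.0323%), and 2021 (10.9%) had an unadjusted p under 0.05. All 6 had a higher fold in controls than in cHet. For Rcor2, a neural co-repressor of the REST complex, the log2 fold was 1.17 in controls and 0.39 in cHet, a difference of 0.78 ± 0.096 (adjusted p = 0.0036). For Topbp1, a DNA damage checkpoint scaffold, it was 1.78 and 0.87, a difference of 0.91 ± 0.12 (adjusted p = 0.00438). The other 4 were Ppp1cc, Slc49a4, Lrrn2 and Ankrd13a, with differences of 0.59 to 0.67. The count depends on the tool and the filter: DESeq2 called 205 genes, 142 with a higher fold in controls and 63 with a lower one, a fit of genes of at least 5 CPM called 55 (52 higher, 3 lower), and the fit without the replicate block called 2.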

How the data were processed

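The authors deposited raw counts of read pairs per gene. Per the file headers, featureCounts 2.0.3 counted them by GENCODE M25 gene (GRCm38), introns too, on the reverse strand. FastQC 0.11.7, STAR 2.7.11a and DESeq2 1.34.0 appear in the submitters' processing notes. The authors' genotype comparisons were not used.

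Counts of the 12 libraries were tested in R 4.3.3 with edgeR 4.0.16 (filterByExpr, TMM, quasi-likelihood test, 1 term per lysate, Benjamini-Hochberg over all genes). The procedure was also run on simulated counts in which few genes changed. Most genes were called in the real data, so that run does not probe the TMM zero. Same-numbered libraries were paired as fractions of 1 lysate, per the titles and the labels' protocols; their deviations from group means correlated at 0.08 to 0.39. Alternatives were other scalings and filters, DESeq2 1.42.0, no replicate block and leaving out each lysate.

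Coding lengths and leaders came from GENCODE M21 (GRCm38), 1 transcript a gene, matched by gene ID for 17897 genes; mitochondrial genes were left out of length classes. Where a symbol has several IDs, the one with most read pairs was used. Named genes were the largest folds in each of 41 lists, overall and against the length class, the 10 largest rises and falls, the most abundant genes that did not pass, same-protein pairs and textbook cases. Genes named outside that rule (Kcnq1ot1, Atf5, Eef2, Eif4e, Eif5b, Rpl3, Hes5, Bcl11b, Neurod2, Neurod6, Tfrc and Actg2) were chosen after their values were seen. Members and lists were chosen with earlier results of these data known. A few items are not reported here.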

Additional observations from a re-analysis of the deposited data

Results flagged for a closer look

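Polysome over monosome of Zfp277 differed between the controls of the 2 crosses by a test of the difference itself (T532M minus LoF -1.33 on the log2 scale, adjusted p = 0.0499). Leaving out LoF replicate 1 or 3 or T532M replicate 1 or 2 ended the call (adjusted p = 0.0753, 0.36, 0.66 and 0.0686), with differences of -1.45, -1.29, -1.28 and -1.45. Cross and control genotype cannot be told apart here.

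Between controls and cHet, a test of the difference in polysome over monosome passed for Rcor2 (0.78 higher in controls), Topbp1 (0.91), Ppp1cc (0.65), Slc49a4 (0.62), Lrrn2 (0.67) and Ankrd13a (0.59). In the edgeR fit without the replicate block Rcor2 and Topbp1 passed (adjusted p = 0.0161 for both). Slc49a4 (adjusted p = 0.0687), Ppp1cc (0.197), Lrrn2 and Ankrd13a (0.102 for both) did not pass in that fit. With the block, leaving out each of the 6 control lysates kept Rcor2, Topbp1 and Slc49a4 past the threshold. Ppp1cc did not pass without T532M control replicate 1 (adjusted p = 0.0571), and Lrrn2 and Ankrd13a did not pass without LoF control replicate 1 (adjusted p = 0.0525 for both), LoF control replicate 3 (0.0721 and 0.11) or T532M control replicate 1 (0.0917 and 0.12).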

How the results depend on the processing

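Called genes numbered 15903 to 16217 in all controls, 14264 to 15460 in LoF and 14204 to 15314 in T532M when single lysates were left out. In the paired design's alternative with no replicate block 15999 genes were called in all controls. With only genes of at least 5 CPM, which tests fewer genes (10888), the counts were 10216, 9941 and 9952. The cross difference was called for 0 genes with DESeq2 size factors or genes of at least 5 CPM, 9 with DESeq2, 2 with all 36 libraries, 3 with library totals, 38 with no filter and 0 to 5 without single lysates. The difference between controls and cHet was called for 205 genes with DESeq2, 55 at 5 CPM or more, 2 with no replicate block and 3 to 9 without single control lysates; the cause was not tested.

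Library totals moved the class medians, from short to long, to -3.99, -2.79, -1.49, -0.31, 0.72 and 1.03, and the 5 CPM filter moved the first 5 to -3.67, -2.22, -0.88, 0.36 and 1.39. Among genes of at least 20 CPM the medians were -3.30 under 100 residues, -0.31 from 200, 1.01 from 400 and 1.88 from 800. With library totals the direction turned for Alas2 (-0.23), Cbx5 (-0.89), Eef1d (-0.22), Eif2s3x (-0.042), Fam168b (-0.84), Ppp1r15b (-0.57), Srsf11 (-0.30) and Zfp949 (-0.62). With the 5 CPM filter it turned for Cbx5 (-0.33), Fam168b (-0.29), Ppp1r15b (-0.017) and Zfp949 (-0.068). Leaving out any lysate changed the call or direction of none of the 192 named genes. Genes with few or no read pairs under overlapping models could not be assessed at any depth here.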

Other observations

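Immediate early genes split by member, with 14 of 26 higher in polysomes and 8 lower, against 40.8% and 49.1% of all genes. Their median was 0.45, which was -0.47 with library totals. Jun, a subunit of the AP-1 factor, was at 2.77 on the log2 scale and its relative Jund at -2.41. Cholesterol synthesis genes were higher for 16 of 22 and lower for 5 (11 and 9 with library totals), with the synthase Hmgcs1 at 4.13. Of 27 synaptic adhesion genes 23 were higher and 4 lower, with Cntn2 and Ncam1 both at 4.15. Their median length was 1332 residues, and 15 of the 27 lay above their length class. Replication-dependent histone mRNAs end in a stem-loop and not a poly(A) tail. Of the 31 tested 25 were lower and 1 higher, against 49.1% and 40.8% of all genes. Their proteins are short (median 126 residues), and 19 of the 30 with a complete coding region lay above their length class.

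Genes of non-neural cells also went both ways. Endothelial and pericyte genes were higher for 12 of 15 and lower for 2. Of 14 microglial genes 6 were higher and 4 lower (5 and 8 with library totals), against 40.8% and 49.1% of all genes. The growth factor receptor Csf1r was at 4.59 and the short adaptor Tyrobp at -3.38. Of 11 meningeal genes 9 were higher and 1 lower.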
